A study of Mus musculus with 12 samples.

Results

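The 9 genes described here handle thyroid hormone in the mouse cortex. They comprise the receptors Thra and Thrb, the transporter Slco1c1, the deiodinases Dio2 and Dio3, the binding protein Crym, and the hormone-induced genes Hr, Klf9 and Thrsp. They were chosen by symbol, as the rows of the count table whose Ensembl identifier carries one of these names in the mouse annotation GENCODE M21. They are 9 of 54232 identifiers in the table, and all 9 passed the filter on low counts that left 18016 genes to test. Messenger RNA of the cortex was sequenced in 12 C57BL/6J mice aged 12 weeks, with 1 library per mouse. The mutants were 6 homozygotes for the Y446C allele of Tbl1xr1, 3 of them female and 3 male. The wild-type mice were 3 females and 3 males. No treatment, transgene or second allele is named for either genotype. A library is called by its mouse's sex, genotype and number, such as female mutant 3.

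Thyroid hormone reaches the brain mainly as thyroxine, which the transporter encoded by Slco1c1 carries across the blood vessel wall and into astrocytes in mice. Dio2 converts it to the active hormone triiodothyronine, while Dio3, found in neurons, inactivates both hormones. Inside the cell, triiodothyronine binds the receptors, which sit on target genes together with retinoid X receptors. Without hormone the receptors recruit the NCoR corepressor complex, of which the protein encoded by Tbl1xr1 is a subunit, and with hormone they recruit coactivators. Hr, Klf9 and Thrsp are among the genes known to be induced by the hormone.

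Both deiodinases are selenoproteins, in which a TGA codon is read as selenocysteine at the catalytic centre. The stretch around that codon is shown because it is the feature that the activating and the inactivating enzyme share. The lines give the coding strand from 5′ to 3′ in GENCODE M21, build GRCm38, with the TGA codon in capitals. In Dio2 the codon is number 130 of 266, within chr12:90729802-90729846 on the minus strand, and in Dio3 it is number 170 of 304, within chr12:110279718-110279762 on the plus strand.
Dio2: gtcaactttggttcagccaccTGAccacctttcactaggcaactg
Dio3: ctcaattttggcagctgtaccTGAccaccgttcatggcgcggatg
Dio2 carries a further annotated selenocysteine at codon 263, close to the end of the protein, within chr12:90729412-90729447.
Dio2, codon 263: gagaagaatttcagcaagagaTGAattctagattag
All of these codons matched the annotation's selenocysteine positions.

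Promoter windows, from 250 bases before to 50 bases after the start in RefSeq on GRCm38.p6, were present for 6 of the 9 genes: Thrb (with 2 windows), Slco1c1, Dio2, Dio3, Klf9 and Thrsp. The windows were searched on both strands for the receptor half-site AGGTCA, for its direct repeat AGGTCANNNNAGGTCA, and for the cAMP response element TGACGTCA. The half-site was found in 1 of the 2 Thrb windows and the cAMP response element in the Dio2 window, and there was no other match, so these letters are not in the other windows. Each site is shown with its flanks, on the strand of the gene and with the motif in capitals. The Thrb site starts 184 bases before the RefSeq start of the transcript (chr14:17660765-17660792, plus strand) and the Dio2 site 95 bases before its RefSeq start (chr12:90739115-90739144, minus strand). These starts differ from the gene bounds given below. By those bounds the Thrb site lies inside the gene and the Dio2 site farther before it.
Thrb: ggagagttgacAGGTCAagggaataggg
Dio2: ctctttctcaaTGACGTCAagatctttagc
Over all 32851 promoter windows, 16.3% held the half-site, 1.79% the cAMP response element and 0.0152% the direct repeat. A match is a description of the letters.

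In GRCm38, Thra lies on chromosome 11 from 98740638 to 98769006 and Thrb on chromosome 14 from 17660261 to 18038090. Hr lies on chromosome 14 from 70552212 to 70573548, Slco1c1 on chromosome 6 from 141524368 to 141570177, and Klf9 on chromosome 19 from 23141226 to 23168134. Crym lies on chromosome 7 from 120186380 to 120202111 and Thrsp on the same chromosome from 97412938 to 97417730. Dio2 lies on chromosome 12 from 90724552 to 90738438 and Dio3 on the same chromosome from 110279068 to 110281097. The 3' end of Thra overlaps Nr1d1, which runs on the opposite strand, over 263 exon bases, or 5.7% of the exon length of Thra. Dio2 shares 100 exon bases, 1.72% of its own, with the noncoding gene Gm26512 on the opposite strand. The strand setting of the counting is not given, so reads in these stretches cannot be assigned with certainty. Counts per gene also do not separate the isoforms of Thra, of which 1 encodes a receptor that binds hormone and another a form that does not.

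Depth was 21238427 to 32669138 counts in 11 of the libraries, of which 5.23% to 10.4% were mitochondrial. The library of female mutant 3 had 3748515 counts, 31.6% of them mitochondrial. Its rank correlation with the others was 0.911 to 0.937, against 0.985 to 0.994 among the 11. In that library 3 counts, the limit that a count of 0 allows, were worth 1.16 counts per 1000000 (CPM), and in the others 0.0861 to 0.137 CPM. The effects of genotype on the 9 genes over both sexes are therefore given with and without it, and the correlations over the 11 other libraries. It held the highest CPM of all 12 libraries for Thrb, Dio2 and Klf9 and the lowest for the other 6 genes. Excitatory neurons, the main cell class of cortex, had 10 of 10 markers counted in every library, at a summed level of 2710 to 4130 CPM in the mutant libraries and 3260 to 3900 CPM in the wild-type ones. Tbl1xr1 averaged 93.5 ± 2.69 CPM in mutants and 105 ± 7.05 CPM in wild type (SD, n = 6 each), and gene counts cannot show the allele itself.

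Per kilobase of exon, and over the 11 libraries without female mutant 3, the receptor gene Thra was the most abundant of the 9 at 82.5 ± 9.05 CPM per kilobase (SD, n = 11). Klf9, which encodes a zinc finger transcription factor, followed at 35.5 ± 4.34 CPM per kilobase. Dio2 stood at 15.6 ± 2.62, Crym at 11.3 ± 4.2, Slco1c1 at 10.8 ± 1.03 and Thrb at 9.87 ± 0.707 CPM per kilobase. The ranges over libraries of these 4 overlapped from each gene to the next. Hr stood at 5.04 ± 0.844, Thrsp at 3.97 ± 0.779 and Dio3 at 1.09 ± 0.725 CPM per kilobase. The ranges of Hr and Thrsp overlapped, and those of Thra and Klf9, Klf9 and Dio2, Thrb and Hr, and Thrsp and Dio3 did not. Thra was above 98.4% of all tested genes and Dio3 above 29.1%.

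**Figure D1:**
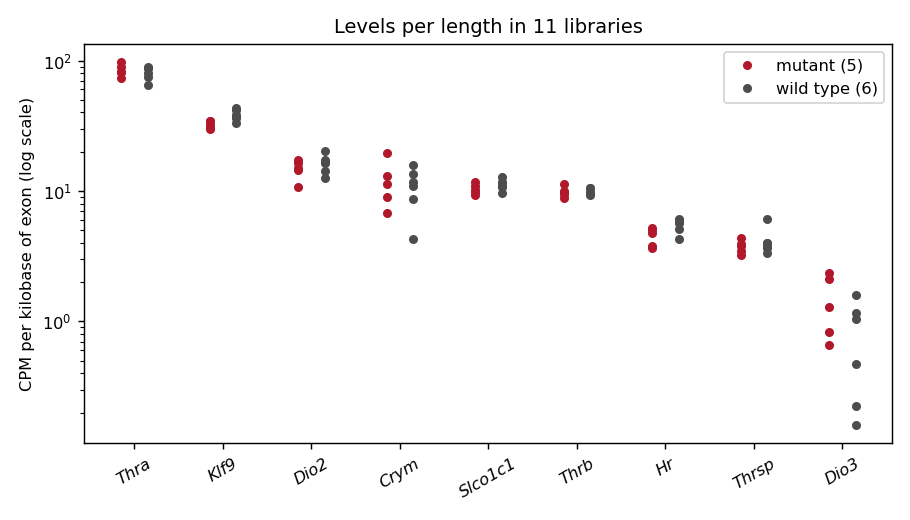
Levels of the 9 genes in CPM per kilobase of exon (log axis), in order of their mean over the 11 libraries without female mutant 3, with 1 point per library for 5 mutants and 6 wild-type mice. Thra averaged 82.5 and Dio3 1.09 CPM per kilobase, and Dio3 and Crym were the most spread.

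None of the 9 genes differed between mutant and wild-type cortex beyond the threshold, an adjusted p of 0.05 with Benjamini-Hochberg adjustment across the tested genes. By edgeR's quasi-likelihood test 0 of 9 passed over both sexes, where 0.00555% of tested genes, or 1, did. By DESeq2 it was 0 of 9 as well, where 0.161% of genes passed. Leaving out female mutant 3, edgeR called 0 of 9 and 0.0108% of 18461 genes. By sign, 7 of the 9 were lower in mutants with all libraries, at a median log2 fold change of -0.09 against -0.01 over all tested genes, of which 52.4% were lower. Scaled by library totals in place of TMM, 8 of the 9 were lower, and the median over all tested genes was -0.08. When female mutant 3 was left out, 6 of the 9 were lower, at a median of -0.11 against 0.002. At an unadjusted p of 0.05, 1 of the 9 passed (Hr, lower in mutants), where 3.96% of genes did and 2.45% were lower. In the 11 other libraries 2 of the 9 passed (Hr and Klf9, both lower in mutants), where 7.46% of genes did and 4.26% were lower. The genotypes did not separate in any of the 9 with all 6 mice of each. Among all tested genes, mutants lay wholly below wild type in 0.294% and wholly above in 0.144%. With 5 mutants against 6 wild-type mice the genotypes again separated in 0 of the 9, and among all tested genes in 0.599% with mutants below and 0.483% with mutants above. In bulk cortex, fewer cells of a type and less RNA per cell cannot be told apart.

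**Figure D2:**
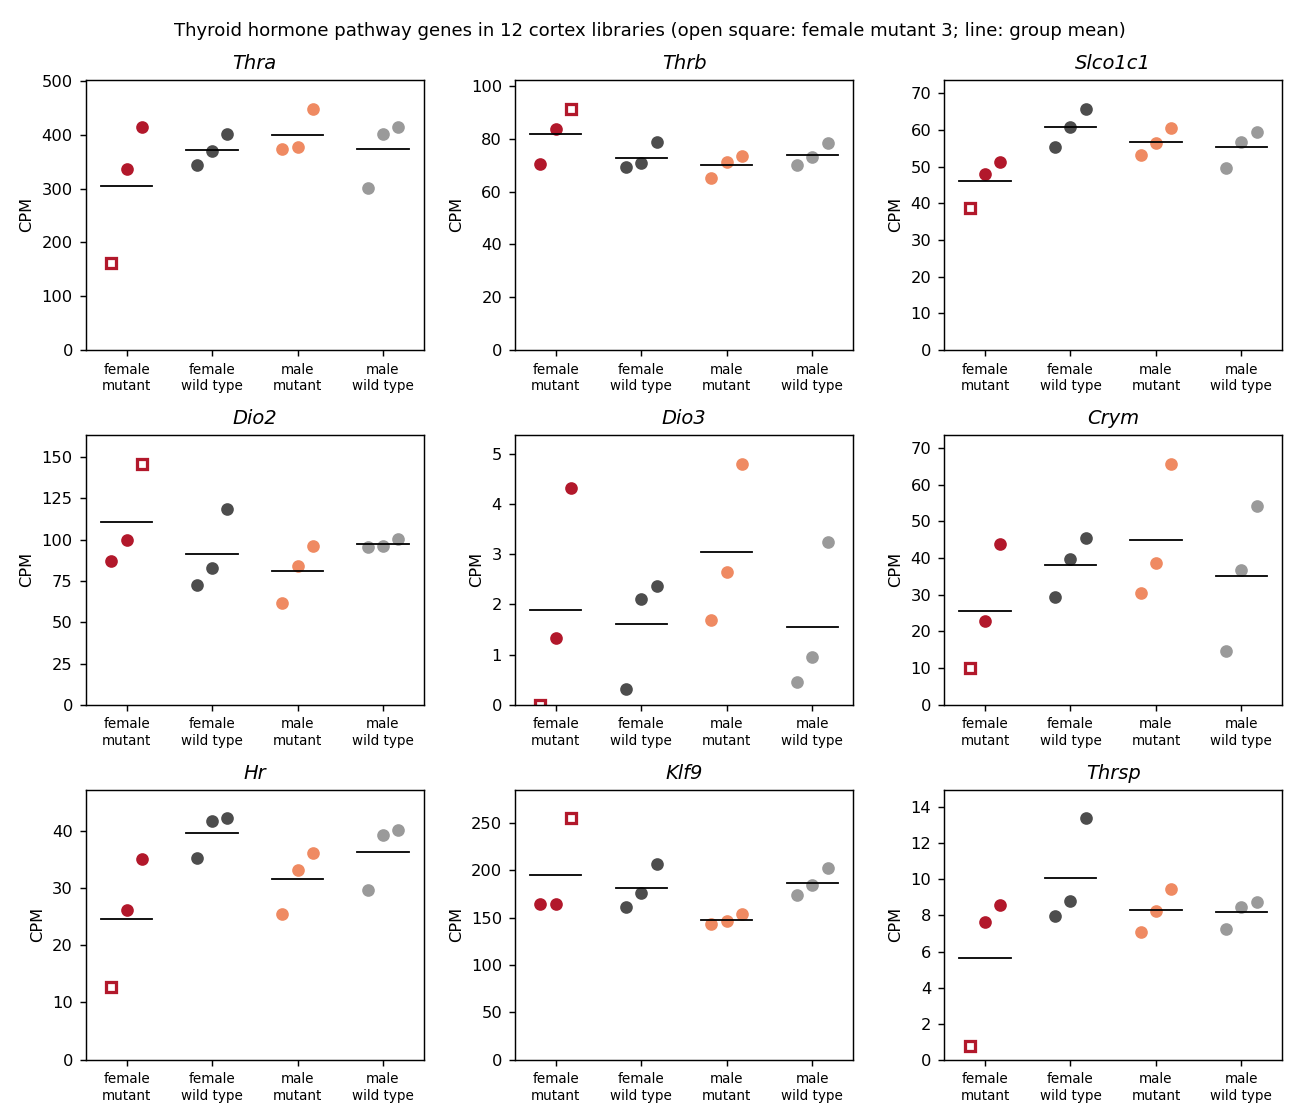
CPM of each of the 9 genes in the 12 libraries, with groups in the order female mutant, female wild type, male mutant and male wild type, and a line at each group mean (n = 3). The open square is female mutant 3, which is highest or lowest of all 12 libraries in every panel, and Klf9 in males is the panel where the male groups do not overlap.

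**Figure D3:**
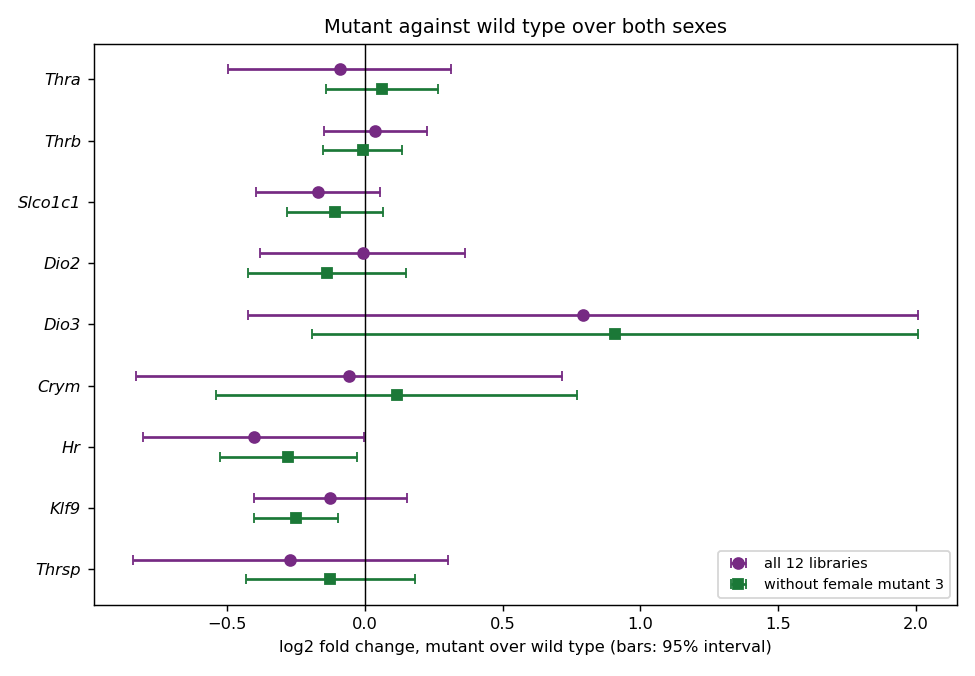
Log2 fold change of mutant over wild type for each gene over both sexes with its 95% interval, with all 12 libraries (6 mutants, 6 wild type) and without female mutant 3 (5 mutants, 6 wild type). The intervals of Hr lie below 0 in both fits and that of Klf9 in the second, before adjustment over all genes.

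The receptor gene Thra had 337, 161 and 414 CPM in female mutants and 371, 402 and 344 CPM in female wild-type mice. In males it had 374, 377 and 449 CPM in mutants and 302, 402 and 415 CPM in wild type. The mutants overlapped the wild-type mice in both sexes, and 161 CPM belongs to female mutant 3. The log2 fold change over both sexes was -0.09 (95% interval -0.50 to 0.31, adjusted p = 0.962 by edgeR) with all libraries and 0.06 (-0.14 to 0.26, adjusted p = 0.94 by edgeR) without that library. Thrb, the receptor with the more restricted pattern among tissues, ran from 65.1 to 91.4 CPM in mutants (median 72.3) and from 69.1 to 78.7 CPM in wild type (median 71.9). Its log2 fold change was 0.04 (95% interval -0.15 to 0.23) with all libraries and -0.007 (-0.15 to 0.14) without female mutant 3. These intervals place Thrb in mutants at 0.903 to 1.17 times the wild-type level with all libraries and at 0.901 to 1.10 times without female mutant 3.

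The balance of both receptors was taken as the log2 ratio of Thrb to Thra CPM within a library. It averaged -2.15 ± 0.67 in mutants and -2.34 ± 0.21 in wild type (SD, n = 6 each). The mean difference within sexes was 0.18 (two-sided exact permutation of genotype within sex over 400 labellings, p = 0.725, adjusted over 2 ratios 0.725, smallest possible p 0.005). Female mutant 3 held the highest ratio at -0.82, and without it the difference was -0.06.

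Slco1c1, which encodes the thyroxine transporter, had 48.1, 38.7 and 51.3 CPM in female mutants and 60.9, 55.4 and 65.8 CPM in female wild-type mice. All 3 female mutants lay below all 3 female wild-type mice, as they did in 12.4% of tested genes. Between the 2 deeper female mutants and the 3 wild-type females the separation held as well, for Slco1c1 and for Hr, as it did in 15.7% of genes. In males it had 56.4, 53.2 and 60.5 CPM in mutants and 49.7, 59.5 and 56.7 CPM in wild type, so the male groups overlapped. In females the log2 fold change was -0.38 (SE 0.126, 95% interval -0.655 to -0.11, unadjusted p = 0.0106, adjusted p = 0.418 by edgeR). In the fit that leaves out female mutant 3 it was -0.29 (-0.51 to -0.07, adjusted p = 0.516 by edgeR). In males it was 0.04 (95% interval -0.23 to 0.31, adjusted p = 1 by edgeR), and 0.04 as well without female mutant 3 (adjusted p = 0.916 by edgeR).

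The effect of genotype on Slco1c1 in females minus that in males was -0.42 on the log2 scale (95% interval -0.80 to -0.03, unadjusted p = 0.0362, adjusted p = 0.555 by edgeR), and -0.325 without female mutant 3 (adjusted p = 0.459). This difference did not pass the threshold over all genes. Beside it, the summed level of 10 microglial markers was 273 to 312 CPM in female mutants and 315 to 351 CPM in female wild-type mice, with 9 of the 10 lower by sign and none at 0. The summed level of 10 endothelial markers was 240 to 318 CPM in female mutants and 283 to 313 CPM in female wild-type mice, with 7 of the 10 lower by sign and none at 0. The 5 blood cell markers had opposite signs in the 2 sexes. Their summed level was 18.2 to 32.2 CPM in female mutants and 34.1 to 44.2 CPM in female wild-type mice, with 5 of 5 lower. In males it was 40.7 to 52.2 CPM in mutants and 20.7 to 27 CPM in wild type, with 5 of 5 higher. The female effect minus the male one was negative for 5 of these 5 at a median of -1.549, each at an unadjusted p under 0.05, where 7.67% of genes had one, and with 0 called. Of the 5, 1 was at 0 in female mutant 3. The summed level of 10 astrocyte markers was 5080 to 6670 CPM in female mutants and 5190 to 5330 CPM in female wild-type mice. Of these 10, 6 were higher and 4 lower by sign, and none was at 0. An unadjusted p under 0.05, in either direction, was held by 5 of the 10, where 11.8% of genes had one. The part of these cells in the Slco1c1 values was not tested.

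Dio2, the activating deiodinase, had 87.0, 146 and 99.6 CPM in female mutants and 82.9, 72.8 and 119 CPM in female wild-type mice. Male mutants had 96.1, 61.9 and 84.2 CPM and male wild-type mice 96.3, 101 and 95.3 CPM. The female groups overlapped, and in males 2 of the 3 mutants lay below all 3 wild-type mice. Over both sexes the log2 fold change was -0.007 (95% interval -0.38 to 0.365, adjusted p = 0.997 by edgeR), and -0.14 (-0.42 to 0.15, adjusted p = 0.877 by edgeR) without female mutant 3. In males it was -0.27 (95% interval -0.76 to 0.22, adjusted p = 1 by edgeR), and -0.27 as well without female mutant 3 (adjusted p = 0.654 by edgeR).

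Dio3, the inactivating deiodinase, was the least abundant and most variable of the 9 in both genotypes. Female mutants had 1.34, 0 and 4.31 CPM, from 34, 0 and 139 counts, and female wild-type mice had 2.36, 2.12 and 0.324 CPM. The 0 in female mutant 3 allows up to 1.16 CPM. Male mutants had 1.68, 2.64 and 4.80 CPM and male wild-type mice 0.4545, 0.956 and 3.24 CPM. The groups overlapped in both sexes. The 2 highest values of all 12 libraries were in mutants, and the next, 3.24 CPM, was in male wild-type 13. The log2 fold change over both sexes was 0.79 (95% interval -0.42 to 2.01, adjusted p = 0.95 by edgeR), and 0.91 (-0.19 to 2.01, adjusted p = 0.737 by edgeR) without female mutant 3. With all libraries this interval covers 0.746 to 4.02 times the wild-type level. Over the 11 libraries without female mutant 3, Dio3 ran opposite to the mean of the 12 striatal projection neuron markers (r = -0.783, rho = -0.873) and of the 8 inhibitory neuron markers (r = -0.778, rho = -0.755). By sign, 12 of the 12 striatal markers and 6 of the 8 inhibitory ones were lower in mutants in these 11 libraries. With all libraries it was 12 of the 12 and 4 of the 8. The part of these cells in the Dio3 values was not tested.

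The log2 ratio of Dio2 to Dio3 CPM within a library averaged 5.01 ± 0.85 in mutants (SD, n = 5, female mutant 3 left out since Dio3 was 0) and 6.35 ± 1.55 in wild type (SD, n = 6). The mean difference within sexes was -1.29 (two-sided exact permutation within sex over 200 labellings, p = 0.185, adjusted over 2 ratios 0.37). The ratios overlapped, since mutants ran from 4.13 to 6.02 and wild-type mice from 4.88 to 8.52.

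Crym, whose product binds triiodothyronine in the cytosol, varied more between mice than between genotypes. It had 23.0, 10.1 and 43.8 CPM in female mutants and 39.8, 45.5 and 29.4 CPM in female wild-type mice. Male mutants had 30.45, 38.6 and 65.8 CPM and male wild-type mice 14.5, 36.8 and 54.1 CPM. Its log2 fold change over both sexes was -0.06 (95% interval -0.83 to 0.72, adjusted p = 0.991 by edgeR), and 0.115 (-0.54 to 0.77, adjusted p = 0.974 by edgeR) without female mutant 3.

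Among the hormone-induced genes, Hr encodes a nuclear protein that itself binds the receptors and represses transcription. It had 35.0, 12.8 and 26.1 CPM in female mutants and 35.2, 41.6 and 42.1 CPM in female wild-type mice. The female groups did not overlap, although female mutant 1 at 34.99 CPM and female wild-type 2 at 35.22 CPM lay next to each other. Male mutants had 33.1, 36.1 and 25.5 CPM and male wild-type mice 40.0, 39.2 and 29.7 CPM, and these overlapped. Over both sexes Hr averaged 28.1 ± 8.75 CPM in mutants and 38.0 ± 4.75 CPM in wild type (SD, n = 6 each). The log2 fold change was -0.40 with female mutant 3 included (SE 0.185, 95% interval -0.805 to -0.002, unadjusted p = 0.049, adjusted p = 0.95 by edgeR). With that library left out it was -0.28 (SE 0.115, 95% interval -0.53 to -0.03, unadjusted p = 0.0312, adjusted p = 0.601 by edgeR). In females it was -0.61 (adjusted p = 0.419 by edgeR), and -0.38 without female mutant 3 (95% interval -0.76 to 0, adjusted p = 0.529 by edgeR). In males it was -0.20 (adjusted p = 1 by edgeR), and -0.20 in the fit without that library as well (adjusted p = 0.7 by edgeR). Over the 11 libraries without female mutant 3, Hr had r = 0.575 and rho = 0.709 with the 12 striatal markers. It had r = 0.643 and rho = 0.718 with the 8 inhibitory neuron markers, and r = 0.653 and rho = 0.400 with the 8 oligodendrocyte markers. None of these passed the adjusted threshold. Without the 2 libraries farthest from the median of each marker mean, r was 0.839 for the striatal, 0.774 for the inhibitory and 0.150 for the oligodendrocyte markers. In all of the 11 libraries, 12 of 12, 6 of 8 and 2 of 8 of these markers were lower by sign in mutants. The part of these cells in the Hr values was not tested.

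Klf9 had 165, 255 and 165 CPM in female mutants and 161, 177 and 207 CPM in female wild-type mice. The value of 255 CPM belongs to female mutant 3 and is the highest of the 12. Male mutants had 154, 143 and 146.5 CPM and male wild-type mice 184.5, 202 and 174 CPM. All 3 male mutants lay below all 3 male wild-type mice, as they did in 6.62% of tested genes, and mutants lay wholly above in 6.88% of tested genes and 0 of the 9. In males the log2 fold change was -0.34 (SE 0.164, 95% interval -0.70 to 0.02, unadjusted p = 0.0594, adjusted p = 1 by edgeR). The male effect was also -0.34 in the fit that leaves out female mutant 3, which shares its spread over all groups (SE 0.0902, unadjusted p = 0.00263, adjusted p = 0.536 by edgeR). Over both sexes Klf9 was at -0.125 (95% interval -0.40 to 0.15, adjusted p = 0.95 by edgeR) with all libraries. Among the 11 other libraries it averaged 154 ± 10.1 CPM in mutants (n = 5) and 184 ± 17.5 CPM in wild type (SD, n = 6). The log2 fold change was then -0.25 (SE 0.0712, 95% interval -0.40 to -0.10, unadjusted p = 0.0037, adjusted p = 0.459 by edgeR), rank 148 of 18461 genes by p.

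Levels of other cells' markers are set beside Klf9 here, and 0 of these markers were called between genotypes. In males the summed level of 8 inhibitory neuron markers was 915 to 971 CPM in mutants and 1030 to 1110 CPM in wild type, with 5 of the 8 lower by sign. Of these 8, 1 had an unadjusted p under 0.05 in males, in either direction, where 2.78% of genes did. In the fit without female mutant 3 it was 5 of the 8, where 8.43% of genes did. The summed level of 10 excitatory neuron markers was 2760 to 3830 CPM in male mutants and 3310 to 3900 CPM in male wild-type mice, with 8 of the 10 lower by sign. The summed level of 12 markers of striatal projection neurons, cells of the tissue beneath the cortex, was 467 to 999 CPM in male mutants and 827 to 1880 CPM in male wild-type mice, with 12 of 12 lower by sign. Over both sexes those 12 markers summed to 467 to 1560 CPM in the mutant libraries and 827 to 2710 CPM in those of wild type, and 12 of 12 were lower by sign at a median log2 fold change of -0.765, with 0 called. Of the 12, 7 had an unadjusted p under 0.05, where 3.96% of genes did. Without female mutant 3 it was 10 of the 12, where 7.46% of genes did, at a median of -0.856. The summed level of 10 astrocyte markers was 4930 to 5020 CPM in male mutants and 5290 to 5610 CPM in male wild-type mice, where 3 of the 10 were lower by sign. Over the 11 libraries without female mutant 3, Klf9 ran opposite to the mean log2 CPM of these 10 (r = -0.775, rho = -0.727), without passing the adjusted threshold. None of the inhibitory, excitatory, striatal and astrocyte markers was at 0 in any library. The 5 blood cell markers, at the male levels given beside Slco1c1, were 5 of 5 higher by sign in male mutants. Their part in the Klf9 values was not tested.

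Thrsp, which encodes a nuclear protein tied to lipid synthesis in liver, had 7.63, 0.774 and 8.56 CPM in female mutants and 8.81, 13.4 and 7.97 CPM in female wild-type mice. In female mutant 3 it rested on 2 counts. Male mutants had 7.10, 9.47 and 8.26 CPM and male wild-type mice 7.27, 8.48 and 8.75 CPM. The genotypes overlapped in both sexes. The log2 fold change over both sexes was -0.27 (95% interval -0.84 to 0.30, adjusted p = 0.95 by edgeR), and -0.125 (-0.43 to 0.18, adjusted p = 0.907 by edgeR) without female mutant 3.

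Within each sex, 0 of the 9 genes passed the adjusted threshold by edgeR, in females where 0% of tested genes did and in males where 0% did. DESeq2 called 0 of 9 in each sex as well, and 0.0333% of genes in females and 0.0222% in males. In females Slco1c1 and Hr, both lower in mutants, had an unadjusted p under 0.05 by edgeR, 2 of 9, where 11.8% of genes did and 3.83% were lower. It was the same 2 of 9 without female mutant 3, where 9.41% of genes did and 4.47% were lower. In males it was 0 of 9 with all libraries, where 2.78% of genes did and 1.75% were lower. In the fit without female mutant 3 it was 1 of 9 in males, Klf9, where 8.43% of genes did, 4.51% were lower and 0.00542% passed the adjusted threshold. For the difference of the effect between the sexes, 0 of 9 passed and 0% of tested genes did, and 1 of 9, Slco1c1, had an unadjusted p under 0.05 where 7.67% of genes did, or 10.6% without female mutant 3. Between females and males over both genotypes, 0 of 9 passed where 0.0389% of tested genes, or 7, did, and 0 of 9 had an unadjusted p under 0.05 where 1.77% did. With female mutant 3 left out these were 0 of 9 against 0.0433% and 0 of 9 against 2.67%. The sex differences of the 9 ran from -0.29 (Crym) to 0.17 (Dio2 and Klf9) on the log2 scale with all libraries.

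**Figure D4:**
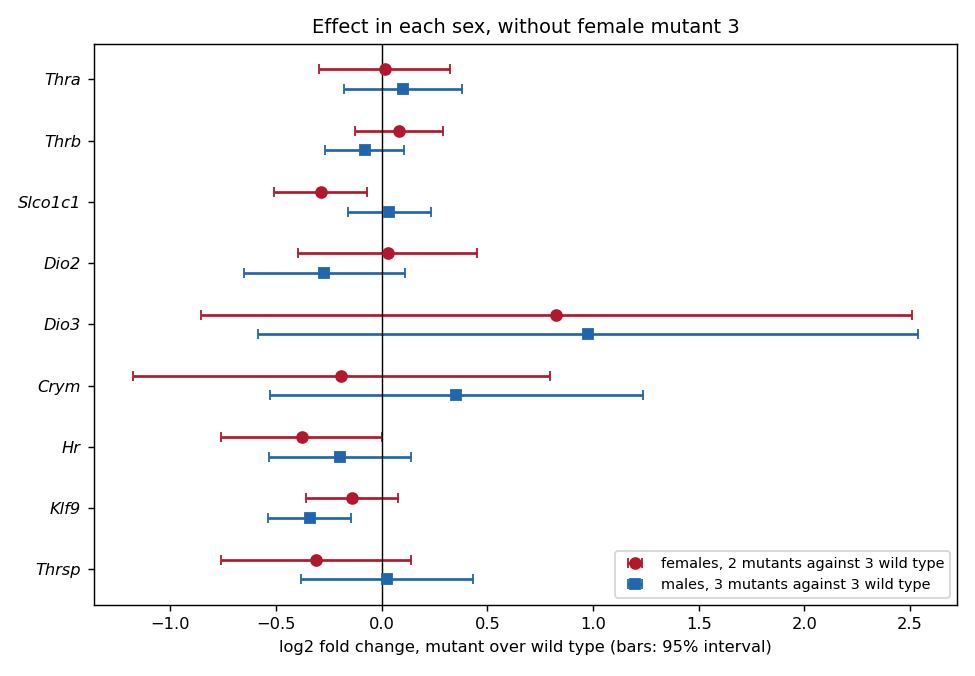
Log2 fold change of mutant over wild type with its 95% interval in females (2 mutants, 3 wild type) and in males (3 mutants, 3 wild type), without female mutant 3. Slco1c1 stands at -0.29 in females and 0.04 in males, and Klf9 at -0.14 in females and -0.34 in males.

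Across the 11 libraries without female mutant 3, some of the 9 genes varied together. Of 36 pairs, 5 had an adjusted p under 0.05 for Pearson's r of log2 CPM (two-sided permutation test with 100000 resamples, Benjamini-Hochberg over the 36). All pairs share libraries, scaling and tissue makeup. Thra and Crym followed each other most closely, at r = 0.958 (permutation p = 1e-05, the smallest these resamples can give, adjusted p = 0.00036) and rho = 0.891 (permutation p = 0.00055, adjusted 0.0198). After leaving out the 2 libraries farthest from the median of Thra, r was 0.883, and with the 4 group means removed it was 0.974. It was 0.975 within the 5 mutants. Mice with more Thra messenger thus had more Crym messenger in either genotype.

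Dio3 varied together with Crym across libraries (r = 0.783, permutation p = 0.0043, adjusted 0.0385; rho = 0.855, permutation p = 0.00151, adjusted 0.0272) and with Thra (r = 0.793, permutation p = 0.00351, adjusted 0.0385; rho = 0.773, permutation p = 0.00743, adjusted 0.0535). Without the 2 farthest libraries the first r was 0.750 and the second 0.638. Hr ran opposite to Dio3, at r = -0.796 (permutation p = 0.00407, adjusted 0.0385) and rho = -0.791 (permutation p = 0.00548, adjusted 0.0493), and r was -0.783 without the 2 farthest libraries. Thrb varied together with Dio2, at r = 0.777 (permutation p = 0.00535, adjusted 0.0385) and rho = 0.827 (permutation p = 0.00268, adjusted 0.0322), and r was 0.788 without the 2 farthest libraries.

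The 9 genes were set in the same way against the mean log2 CPM of 10 cell and tissue marker lists, which makes 90 relations, of which 5 had an adjusted p under 0.05 for Pearson's r. Klf9 followed the inhibitory neuron markers, at r = 0.949 (permutation p = 2e-05, adjusted 0.0018) and rho = 0.973 (permutation p = 1e-05, adjusted 0.0009), with r = 0.918 without the 2 farthest libraries and 0.933 with group means removed. It also followed the striatal markers, at r = 0.861 (permutation p = 0.00063, adjusted 0.0178) and rho = 0.800 (permutation p = 0.00469, adjusted 0.127), with r = 0.725 without the 2 farthest libraries. Bulk counts do not show whether the inhibitory markers came from cortical or striatal cells, and this was not tested. Klf9 ran opposite to the astrocyte markers, at r = -0.775 (permutation p = 0.00489, adjusted 0.055) and rho = -0.727 (permutation p = 0.0142, adjusted 0.137), with r = -0.589 without the 2 farthest. Thrb followed the excitatory neuron markers, at r = 0.896 (permutation p = 0.00019, adjusted 0.00855) and rho = 0.736 (permutation p = 0.013, adjusted 0.137), with r = 0.818 without the 2 farthest. Dio2 followed the same markers, at r = 0.831 (permutation p = 0.0026, adjusted 0.0468) and rho = 0.791 (permutation p = 0.00563, adjusted 0.127), with r = 0.679 without the 2 farthest. Slco1c1 followed the microglial markers, at r = 0.858 (permutation p = 0.00079, adjusted 0.0178) and rho = 0.764 (permutation p = 0.00889, adjusted 0.137), with r = 0.766 without the 2 farthest. Its r with the endothelial markers was 0.085 (permutation p = 0.802, adjusted 0.934; rho = 0.009, permutation p = 0.989, adjusted 1) and became 0.215 without the 2 farthest. With the astrocyte markers, r was -0.638 for Dio2 (permutation p = 0.0359, adjusted 0.231) and -0.566 for Slco1c1 (permutation p = 0.0673, adjusted 0.263). The rho values were -0.500 and -0.491, and r became -0.232 and -0.635 without the 2 farthest. Dio3 ran opposite to the striatal markers, at r = -0.783 (permutation p = 0.0034, adjusted 0.051) and rho = -0.873 (permutation p = 0.00069, adjusted 0.031), with r = -0.818 without the 2 farthest. With the inhibitory markers Dio3 had r = -0.778 (permutation p = 0.00423, adjusted 0.0544) and rho = -0.755 (permutation p = 0.00974, adjusted 0.137), with r = -0.660 without the 2 farthest. Apart from Klf9 with the inhibitory and Dio3 with the striatal markers, the rho values of these relations did not pass the adjusted threshold.

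**Figure D5:**
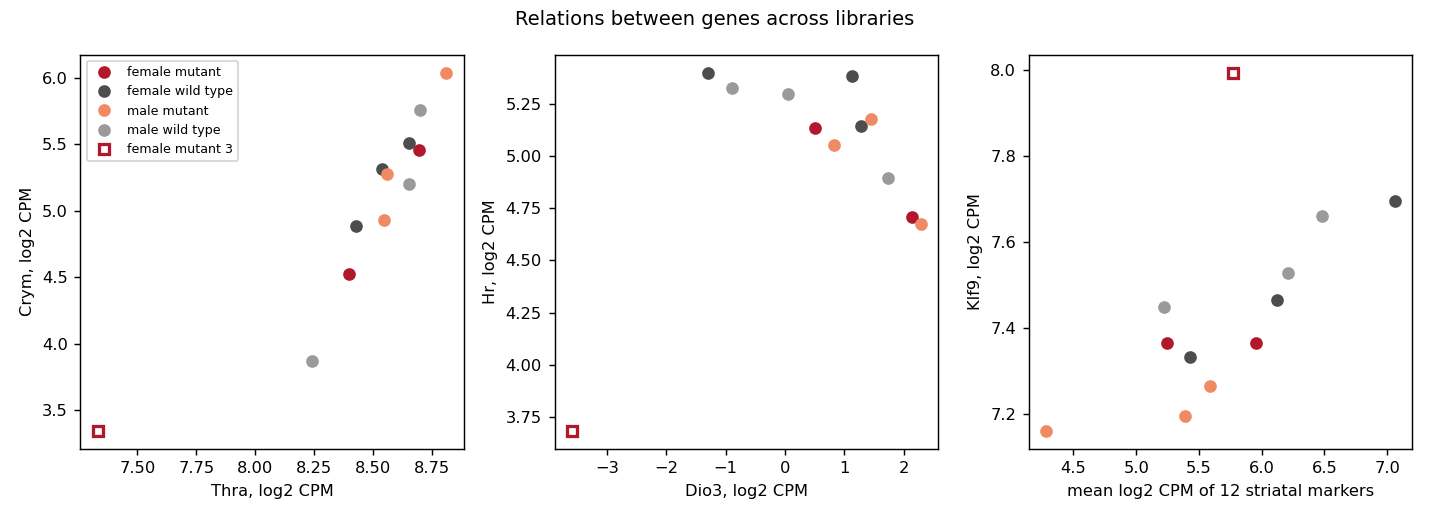
Crym against Thra, Hr against Dio3, and Klf9 against the mean of 12 striatal markers, in log2 CPM, with 1 point per library. The open square is female mutant 3, which was left out of the correlations (n = 11), and the other points give r = 0.958, -0.796 and 0.861 from left to right.

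The genes most like each of the 9 were taken as the 2 with the highest Pearson's r of log2 CPM over the 11 libraries among 13225 genes with a mean of at least 1 CPM, as a description. They were Sept9 (0.985) and Syn2 (0.973) for Thra, Mpped1 (0.974) and Sept9 (0.958) for Crym, and Gpr161 (0.979) and Cpne7 (0.967) for Dio3. For Thrb they were Srr (0.953) and Dlg2 (0.935), for Dio2 Bzw1 (0.95) and Git1 (0.937), and for Klf9 Rapgef4 (0.956) and Rasgrp1 (0.928). For Hr they were Apln (0.956) and Impa2 (0.945), for Thrsp Zfp775 (0.928) and Pomt1 (0.852), and for Slco1c1 Pcdha12 (0.903) and Pdzph1 (0.893).

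Other genes of the pathway were read from 5 lists, and 0 of them passed the adjusted threshold over both sexes, where 0.00555% of tested genes did. Of 7 other hormone transporters, 7 were lower by sign at a median log2 fold change of -0.10, and 5 were lower at a median of -0.02 without female mutant 3. Slc7a5, an amino acid transporter that also carries thyroid hormone, was at -0.22 (adjusted p = 0.95 by edgeR), and at -0.09 without female mutant 3 (adjusted p = 0.896 by edgeR). Of 7 genes for deiodinase 1 and the handling of deiodinases, 5 could be tested and 4 were higher by sign, with Wsb1, which marks the Dio2 protein for degradation, at 0.11 and Selenop, the selenium carrier, at 0.15 (both adjusted p = 0.95 by edgeR). Without female mutant 3, Wsb1 was at 0.11 (adjusted p = 0.78 by edgeR) and Selenop at 0.08 (adjusted p = 0.944 by edgeR).

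Of 9 receptor partners and coactivators, 5 were higher by sign, and Rxrg, a retinoid X receptor, had the smallest p. It averaged 9.81 ± 3.06 CPM in mutants and 18.5 ± 9.61 CPM in wild type (SD, n = 6 each), and the ranges overlapped at 4.76 to 12.8 CPM in mutants and 8.39 to 34.6 CPM in wild type. Its log2 fold change was -0.935 (SE 0.326, unadjusted p = 0.0134, adjusted p = 0.95 by edgeR), and -0.97 without female mutant 3 (adjusted p = 0.52 by edgeR). Beside it, the 12 striatal markers given with Klf9 were 12 of 12 lower by sign in mutants at a median of -0.765. The library with the least Rxrg, male mutant 10, also had their lowest summed level at 467 CPM, and that with the most, female wild-type 5, their highest at 2710 CPM. The part of these cells in the Rxrg values was not tested. Of 6 corepressor genes, 4 were lower by sign, led by Tbl1xr1 itself at -0.17 (SE 0.0677, unadjusted p = 0.0251, adjusted p = 0.95 by edgeR), and at -0.18 without female mutant 3 (adjusted p = 0.488 by edgeR). Ncor1, which encodes NCoR, was at 0.16 (adjusted p = 0.95 by edgeR), and at 0.016 without female mutant 3 (adjusted p = 0.986 by edgeR), which held its highest level at 566 CPM.

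Of 12 other hormone-induced genes, 11 could be tested and 8 were lower by sign, at a median of -0.10, and 8 of 12 were lower without female mutant 3, at a median of -0.01. Dbp, a circadian transcription factor, averaged 20.6 ± 3.97 CPM in mutants and 28.1 ± 4.52 CPM in wild type (SD, n = 6 each). The ranges overlapped at 13.2 to 23.5 CPM in mutants and 21.4 to 35.3 CPM in wild type. Its log2 fold change was -0.42 (SE 0.138, unadjusted p = 0.00892, adjusted p = 0.95 by edgeR), and -0.35 (adjusted p = 0.488 by edgeR) without female mutant 3. Pcp2, a Purkinje cell gene, was at 2.13 on the log2 scale (adjusted p = 0.95 by edgeR) and at 2.25 without female mutant 3 (adjusted p = 0.756 by edgeR), with 14.7 CPM in male mutant 10 and a median of 0.0974 CPM in mutants and 0.2425 CPM in wild type.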

How the data were processed

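Frozen cortex of each mouse gave 1 library, so p-values measure the spread between these mice. Per the submitters' processing notes, the tools were Trimmomatic 0.36, HISAT2 2.1.0 with the build GRCm38.p6, HTSeq 0.11, and Cufflinks with no version. The authors deposited raw counts per gene, which are whole numbers. Neither the counting's strand setting nor its annotation release is given. Identifiers that matched GENCODE M21 numbered 54165 of 54232, and the rest took at most 0.0297% of the counts in a library.

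Low genes were removed with filterByExpr on the 4 groups, and TMM scaling and the quasi-likelihood test of edgeR 4.0.16 followed (R 4.3.3). The model held sex and genotype for the effects over both sexes, and a mean for each group for the effects within a sex and their difference. Benjamini-Hochberg adjustment ran across the tested genes of a comparison, with calls at 0.05. CPM use TMM-scaled totals, and the prior count of log2 CPM was 2. Intervals are at 95%, and the floor for a count of 0 is 3 counts in a library, for counting error only. The procedure was tested on simulated counts with known fold changes. Otherwise all simulated libraries shared the same gene means, so that test does not cover the unusual makeup of female mutant 3.

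The 9 genes, the pathway and marker lists and the tests were chosen with earlier results of these data known. The genes named are the 9, those that overlap them, Tbl1xr1, the 4 of smallest p in each pathway list, of which some are not printed, and the 2 most like each of the 9 among genes with a settled symbol. The alternatives were DESeq2 1.42.0, limma-voom (limma 3.58.1) plain and with library weights, RLE scaling, library totals, no filter, at least 1 CPM in 6 libraries, no mitochondrial genes, no sex term, 1 mean a group, each sex alone, and each library left out. After seeing the data, DESeq2 and the weighted fit were also run without female mutant 3.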

Additional observations from a re-analysis of the deposited data

Results flagged for a closer look

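In 18 groups of 6 libraries (each of the 9 genes in mutants and in wild type), 3 held a library far from the others by Dixon's test at 95%, which chance gives in about 1 in 20 groups. Klf9 stood at 255 CPM in female mutant 3, against 165 CPM in the nearest of the other mutants. Thrsp stood at 0.774 CPM in female mutant 3, from 2 counts, against 7.10 CPM in the nearest of the other mutants. Thrsp stood at 13.4 CPM in female wild-type 4, against 8.81 CPM in the nearest of the other wild-type mice.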

How the results depend on the processing

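Under every alternative run for the 5 comparisons, 0 of the 9 genes passed the adjusted threshold. The lowest adjusted p was 0.159, for Hr in females, and for Klf9 it was 0.199 over both sexes and 0.19 in males. Over both sexes Slco1c1, Dio3, Hr, Klf9 and Thrsp kept their sign under all alternatives. In females Slco1c1, Dio2, Crym, Hr and Thrsp did, and in males Thrb, Dio2, Dio3, Hr and Klf9 did. The depth of female mutant 3 limits what can be said of Dio3 and Thrsp, with 0 and 2 counts there. The intervals for Dio3 and Crym were wide over both sexes as well, with 6 mice of each genotype. No paired analysis was possible because each mouse number occurs in 1 group only.

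Over all tested genes the number called over both sexes was 1, against 29 with DESeq2, 22 with limma-voom and library weights, 0 with library totals, and 0 to 2 when 1 library was left out. Without female mutant 3 it was 53 with DESeq2 and 4 with library weights. In females it was 0, against 6 with DESeq2, 4 with weights and 2 with no filter, and without female mutant 3 it was 15 with DESeq2 and 1 with weights. In males it was 0, against 4 with DESeq2, 1 with weights and 0 to 1 with 1 library left out, and without female mutant 3 it was 16 with DESeq2 and 1 with weights. For the difference between the sexes it was 0, against 4 with DESeq2, 1 with weights, 1 with no filter and 0 to 1 with 1 library left out. For sex it was 7, against 12 with DESeq2. Scaling by library totals put the median log2 fold change over all tested genes at -0.21 in females, against -0.03 with TMM, and that of the difference between the sexes at -0.24, against -0.03. The cause of these shifts was not tested.

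Some log2 fold changes that passed no adjusted threshold turned sign, and the cause was not tested. Over both sexes Dio2 became 0.0033 with DESeq2, 0.0056 with the filter of 1 CPM in 6 libraries and 0.0063 with no sex term, and Crym 0.0472 with limma-voom. Thrb became -0.0316 with library weights and -0.0548 with library totals. Without female mutant 3, DESeq2 gave 0.064 for Thra, -0.0056 for Thrb and 0.1162 for Crym, and library weights gave -0.0362 for Thrb. In females Klf9 became -0.0957 with weights and -0.1667 with library totals, and Thrb -0.0642 with library totals. Without female mutant 3, DESeq2 gave 0.0208 for Thra and -0.134 for Klf9 in females, and weights gave 0.0068 for Thra and -0.1105 for Klf9. In males library weights gave -0.0209 for Thra, -0.0112 for Slco1c1, -0.0738 for Crym and -0.0887 for Thrsp. Without female mutant 3, weights gave -0.0293 for Thra, -0.0132 for Slco1c1, -0.1116 for Crym and -0.0934 for Thrsp in males. The difference between the sexes became 0.0189 for Thra and 0.4505 for Dio3 with weights and -0.019 for Thrb with library totals. For sex, Thrsp became -0.038 with DESeq2, -0.0142 with limma-voom and -0.0758 with library totals. With weights the sex difference was -0.0143 for Dio2 and 0.1027 for Hr, and with library totals it was -0.0207 for Thrb.

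With 1 library left out in turn, the values over both sexes ran from -0.1927 to 0.0622 for Thra, from -0.0074 to 0.0762 for Thrb, from -0.1368 to 0.0963 for Dio2 and from -0.2718 to 0.1147 for Crym. In females they ran from -0.5703 to 0.0137 for Thra, from -0.5722 to 0.9955 for Dio3 and from -0.1407 to 0.1985 for Klf9. In males they ran from -0.0299 to 0.1836 for Thra, from -0.0347 to 0.0938 for Slco1c1, from -0.0201 to 0.8082 for Crym and from -0.0845 to 0.1207 for Thrsp. The difference between the sexes ran from -1.5479 to 0.1049 for Dio3. For sex they ran from -0.523 to 0.2452 for Dio3, from -0.1795 to 0.0529 for Hr and from -0.1466 to 0.1544 for Thrsp. The difference in the Thrb to Thra ratio ran from -0.0603 without female mutant 3 to 0.3129 without female mutant 6.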
